A study of Mus musculus with 8 samples.

Results

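Chondrocyte identity is set by a small group of DNA-binding proteins, and the transcripts of 10 of them were followed in mouse knee joints. The genes were taken by name, as rows of the deposited table whose symbol was Sox5, Sox6, Sox9, Runx1, Runx3, Mef2c, Nkx3-2, Foxc1, Foxc2 or Barx1. All 10 were found among the 20681 genes of the table. The 8 libraries came from whole knee joints, 4 in the group labelled Control (library names Vehicle_DMM_LOXL2wt) and 4 in the group labelled Knockout (KO_DMM_LOXL2ko). All 8 joints are described as coming from Acan-Cre;Loxl2 fl/fl mice, in which Cre recombinase is driven by the aggrecan gene and the Loxl2 alleles carry loxP sites. The control samples are called vehicle-treated, and the treatment of the other group is not named. An effect of that treatment and an effect of Loxl2 loss cannot be told apart in this design. Every library name also contains DMM, an abbreviation left unexplained there, and the title of the series mentions post-traumatic injury. The aggrecan promoter is active mainly in cartilage, and whole-joint counts do not show in which tissues Loxl2 was lost or kept. Age and sex are not given in the sources used here. Replicates are separate samples by label, and nothing states that each came from its own animal, so the p-values measure only the spread between these samples.

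SOX9 is the master regulator of cartilage. It binds the enhancers of genes such as Col2a1 and Acan, and SOX5 and SOX6, which lack a transactivation domain of their own, bind beside it and strengthen its action. RUNX proteins share a DNA-binding Runt domain and act with the partner CBFB, and together with MEF2C they belong to the steps by which chondrocytes mature and enlarge. NKX3-2 and BARX1 are homeodomain proteins of early cartilage and joint-forming tissue, and FOXC1 and FOXC2 are forkhead proteins of the skeletal mesenchyme. None of these genes is private to cartilage, since Mef2c and Sox6 also act in skeletal muscle, Runx1 and Runx3 in blood cells, and Foxc1 and Foxc2 in vessels.

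The RUNX genes carry a shared letter pattern, which is shown because Runx1, Runx3 and their relative Runx2 all had higher counts in the libraries labelled Knockout. In RefSeq windows on build GRCm38.p6, each 300 bases long with 250 before a transcript start and 50 after it, 8 of the 10 genes were matched, with 17 windows. Sox9 and Foxc2 had no entry. The letters ACCACA, a core of the RUNX recognition site, were searched on both strands and were present in 16.8% of all 32851 windows and in 5 of the 17. A pair of copies in the same direction, parted by the letters ga, was the only paired form searched and occurred in 4 windows (0.0122%). These belonged to Runx1, Runx2, Runx3 and Gm16225, whose window lies opposite that of Runx3. The 30 bases around the pair, with ACCACA in capitals, are as follows.
Runx1: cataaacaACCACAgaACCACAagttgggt
Runx2: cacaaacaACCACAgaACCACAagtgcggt
Runx3: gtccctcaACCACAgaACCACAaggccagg
The Runx1 stretch is chr16:92826025-92826054 (minus strand) and the Runx2 stretch chr17:44814583-44814612 (minus strand), each after the listed start. The Runx3 stretch is chr4:135120503-135120532 (plus strand), before the start. The more downstream windows of Runx1 and Runx3 held 0 copies of ACCACA. A match is a description of the letters only, and gene counts do not tell which start was used.

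The deposited values are read counts divided by a size factor for each library, called normalised counts here. The libraries held 13991000 to 17411617 reads on genes. The test covered the 14949 genes whose value reached 10 in 4 or more libraries, all 10 transcription factors among them. Nkx3-2 reached that value in 6 of 8 libraries, 3 in each group, and the other 9 genes reached it in all 8. A gene is called when limma, fitted to log2 values after adding 1, gave a Benjamini-Hochberg adjusted p under 0.05 over all genes tested. Loxl2 was examined first. Its mean was 519 ± 411 in the controls and 1210 ± 329 in the libraries labelled Knockout (SD, n = 4 each), a rise of 1.44 on the log2 scale with a limma adjusted p of 0.0294 and overlapping groups, against the label. Control replicate 3, at 1135, lay among the libraries labelled Knockout, and without it the difference was 1.91. The limma call of Loxl2 ended when control replicate 1 (adjusted p = 0.0663), 2 (0.0795) or 4 (0.0766) or knockout replicate 2 (0.0744) or 4 (0.0847) was dropped. For that reason the groups are named by their labels, and values without control replicate 3 are given beside the results.

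Of the 10 transcription factors, 6 were called. Runx1, Runx3, Foxc1 and Foxc2 rose and Sox6 and Mef2c fell in the libraries labelled Knockout, while Sox5, Sox9, Nkx3-2 and Barx1 did not pass the test. In bulk RNA, fewer cells of a type and less RNA per cell cannot be told apart. Over all genes tested limma called 23.2%, with 11.6% higher and 11.6% lower. The median log2 difference of the 10 genes was 0.60, against 0.00 over all genes, and 8 of the 10 differences were above 0, against 50.1% of all genes. The groups did not overlap for the same 6 genes. Over all genes they did not overlap for 25.1%, with 11.7% higher and 13.4% lower. With only 4 libraries a group, the smallest p that the exact two-sided permutation test can give is 0.0286, over 70 assignments. Without control replicate 3 the count was again 6, with 4 higher and 2 lower. The count was 3, with 1 higher and 2 lower, without control replicate 2, without knockout replicate 1 or without knockout replicate 4.

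**Figure D1:**
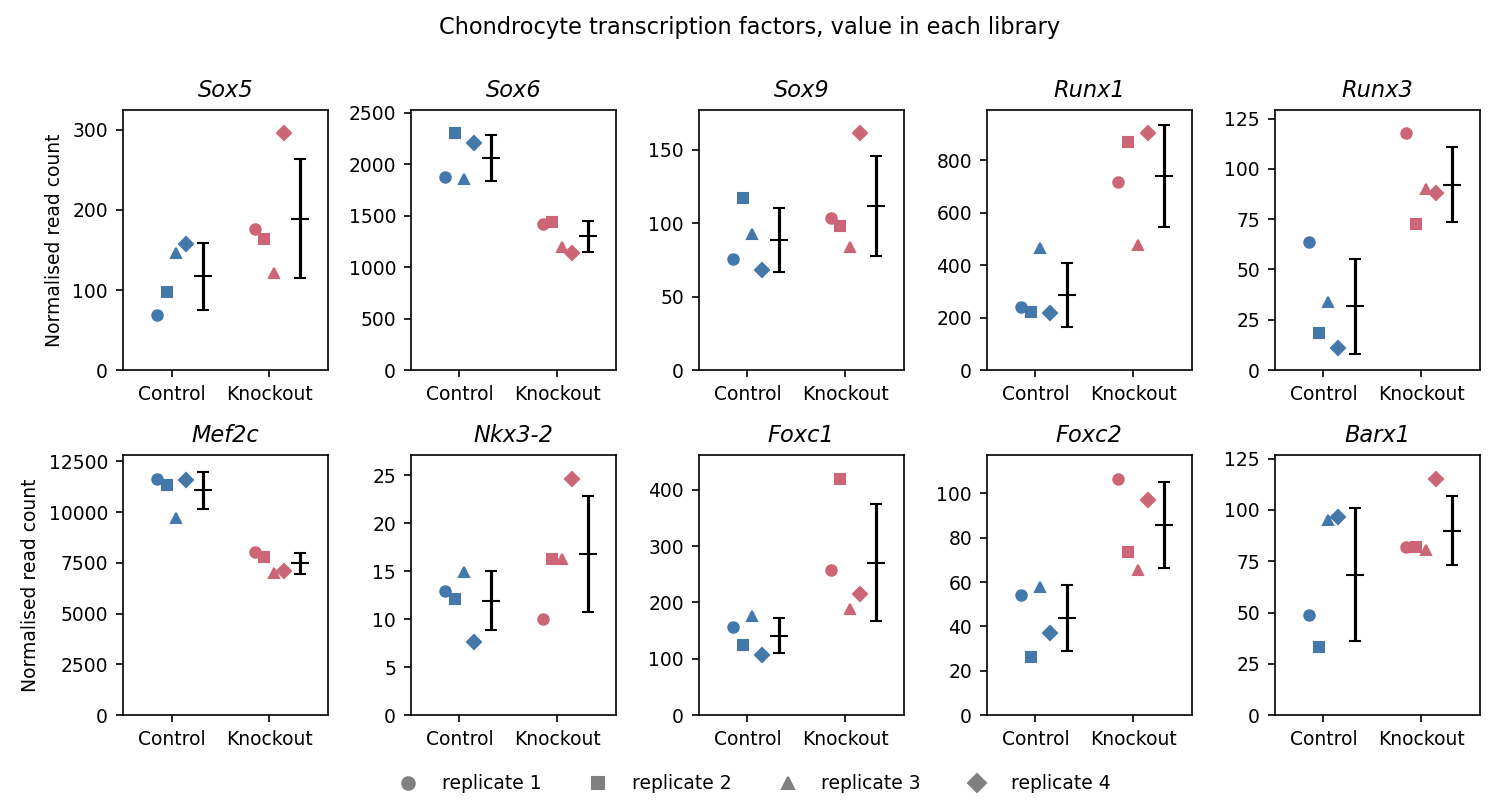
Normalised read count (vertical axes, from 0) of each of the 10 transcription factor genes in the 4 control libraries (blue) and the 4 libraries labelled Knockout (red), with marker shapes for replicate numbers and black bars for mean ± SD. The groups are separate for Sox6, Runx1, Runx3, Mef2c, Foxc1 and Foxc2 and overlap for Sox5, Sox9, Nkx3-2 and Barx1.

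Levels were compared between genes per kilobase of annotated exon, using the union of all exons of a gene. Mef2c was the highest in the controls, at 704 ± 58.9 normalised reads per kilobase, and only 0.90% of tested genes had a higher control count before division by length. Sox6 followed at 139 ± 15.2, and Barx1 came next at 48.9 ± 23.1 per kilobase. Foxc1 (24.1 ± 5.30), Runx1 (23.8 ± 10.1), Sox9 (21.4 ± 5.26) and Foxc2 (16.1 ± 5.43) formed the middle of the order. Sox5 (8.15 ± 2.92), Nkx3-2 (6.94 ± 1.79) and Runx3 (6.33 ± 4.69) were the lowest (SD, n = 4 for each). Only Mef2c and Sox6 were separated from the next gene in every control library, and from Barx1 downward each neighbour overlapped the next. In the libraries labelled Knockout, Mef2c stood at 476 ± 32.3 and Sox6 at 87.5 ± 10.3 per kilobase. There Runx1, at 61.6 ± 16.2, came next after Barx1, and the lowest was Nkx3-2 at 9.78 ± 3.50. Sox6 overlapped Barx1 (64.3 ± 12.1) in that group.

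Markers of cartilage and of skeletal muscle were both present in the joints. The summed normalised count of 13 chondrocyte markers, of which 12 were in the table, was 1197 to 7830 in the control libraries and 2164 to 3865 in the libraries labelled Knockout. That of 16 skeletal muscle markers was 2451169.5 to 2649239 and 1175695 to 1664679. Of the defining chondrocyte markers, Matn1 had no row in the table and Epyc was below the filter, and the remaining 11 were tested.

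Sox9, the central gene of the group (chromosome 11, 112782224 to 112787760, plus strand of mm10), had normalised counts of 75.7, 117, 92.5 and 67.9 in the 4 controls, in replicate order. The 4 libraries labelled Knockout had 104, 98.4, 83.7 and 161. The groups overlapped, and only knockout replicate 4 lay above all control libraries. The means were 88.3 ± 21.8 and 112 ± 34.0, a difference of 0.32 ± 0.24 on the log2 scale (estimate ± SE, adjusted p by limma 0.353, by exact permutation p = 0.286). Over 17 alternative settings the difference was between 0.09 and 0.47 and Sox9 was called in 0 of them. The low end, 0.09, came with quantile normalization, and without control replicate 4 or knockout replicate 4 the difference was 0.21 or 0.13. On the log2 scale, Sox9 minus the mean of the chondrocyte markers was 0.50 ± 1.12 in the controls and 0.21 ± 0.92 in the libraries labelled Knockout, with overlapping groups. With the muscle markers subtracted instead, the groups were separate (-9.56 ± 0.26 and -8.54 ± 0.61, higher in the libraries labelled Knockout). With the fibroblast markers they were also separate (-4.49 ± 0.68 and -5.91 ± 0.26, lower there). With the endothelial or the macrophage markers they overlapped. These differences were not tested.

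Sox5 (chromosome 6, 143828425 to 144781977, minus strand), one of the SOX9 partners, had values of 68.1, 96.9, 146 and 158 in the 4 controls, in replicate order. The values were 177, 163, 122 and 296 in the 4 libraries labelled Knockout. Knockout replicate 3 lay below the 2 highest control libraries, so the groups overlapped. The difference was 0.69 ± 0.32 on the log2 scale (estimate ± SE, adjusted p by limma 0.141, by exact permutation p = 0.143). It was 0.46 without control replicate 1, 0.45 without knockout replicate 4 and up to 0.87 (without knockout replicate 3), and Sox5 was called in 0 of 17 alternative settings. With the mean of the muscle markers subtracted, the groups were separate, higher in the libraries labelled Knockout. With that of the fibroblast markers they were separate and lower there, and with the chondrocyte, endothelial or macrophage markers they overlapped. The annotation places several antisense transcripts opposite Sox5, among them Sox5os1 to Sox5os5, and the use of strand in counting is not stated, so their reads were not necessarily kept apart.

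Sox6 (chromosome 7, 115470872 to 116038796, minus strand, opposite Sox6os and Gm45025), the other SOX9 partner and also a repressor of slow-fibre genes in muscle, fell. Its values were 1879, 2300, 1857 and 2203 in the 4 controls, in replicate order. They were 1422, 1435, 1196 and 1140 in the 4 libraries labelled Knockout, every one below the lowest control. The means were 2060 ± 225 and 1298 ± 152, a difference of -0.67 ± 0.11 on the log2 scale (estimate ± SE, adjusted p by limma 0.00561, by exact permutation p = 0.0286). Sox6 was called in 17 of 17 alternative settings, between -0.72 and -0.51, and the difference without control replicate 3 was -0.71.

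Among Sox5, Sox6 and Sox9 only Sox6 was called, and its ratios to the others differed between the groups of whole-joint libraries. The log2 ratio of Sox5 to Sox6, which does not depend on scaling, was -4.19 ± 0.55 in the controls and -2.84 ± 0.61 in the libraries labelled Knockout, and that of Sox9 to Sox6 was -4.55 ± 0.33 and -3.56 ± 0.50. The groups did not overlap for either ratio. For the ratio of Sox9 to Sox5 (-0.36 ± 0.70 and -0.72 ± 0.14) they overlapped. These ratios were not tested, and counts from whole joints do not tell in which cells they differed.

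Mef2c (chromosome 13, 83504034 to 83667080, plus strand), a MADS-box factor of chondrocyte hypertrophy and of muscle, fell as well. It had 11655, 11355, 9696 and 11576 normalised counts in the 4 controls, in replicate order, and 8032, 7773, 7010 and 7079 in the 4 libraries labelled Knockout. The groups were separate, with control replicate 3 nearest to the other group. The means were 11071 ± 925 and 7473 ± 507, a difference of -0.57 ± 0.10 on the log2 scale (estimate ± SE, adjusted p by limma 0.00613, by exact permutation p = 0.0286). Without control replicate 3 the difference was -0.63. Under quantile normalization it was only -0.23 and was not called (limma adjusted p = 0.0959).

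Skeletal muscle markers were lower beside Mef2c and Sox6. All 16 had differences below 0 in the deposited scaling, with a median log2 difference of -0.74. Those of Myh1 (-0.06) and Tnnc2 (-0.03) were close to 0. Tnnc2, which is part of the muscle score, had means of only 11.9 ± 3.37 and 12.2 ± 5.55. Of the 16, 8 were called, beside 11.6% of all genes called lower. Quantile normalization gave a median of -0.39 with 1 difference above 0 and 4 called, and scaling without muscle, blood and the highest genes gave -0.59 with 2 above 0 and 7 called. With single libraries left out, 5 (without control replicate 4) to 11 (without knockout replicate 3) were called. By edgeR 13 were called lower and by DESeq2 14, each with 1 difference above 0. The highest of the 16 in mean count were Myh4, a fast myosin (584705 ± 71977 and 290797 ± 100838), Acta1, skeletal actin (403793 ± 32480.3 and 253117 ± 42374), and Atp2a1, a calcium pump (359036 ± 44482 and 181779.7 ± 34439.5). Of these, Atp2a1 was called (limma adjusted p = 0.0245), while Myh4 (0.0521) and Acta1 (0.0934) were not. On the log2 scale, Mef2c minus the mean of the muscle markers was -2.58 ± 0.16 in the controls and -2.45 ± 0.22 in the libraries labelled Knockout. The same quantity for Sox6 was -5.01 ± 0.12 and -4.98 ± 0.21. The groups overlapped in these differences, where they were separate for the counts themselves. They also overlapped when the chondrocyte or the endothelial score was subtracted from either gene. With the fibroblast or the macrophage score subtracted they were separate, the libraries labelled Knockout being lower. The part of the muscle RNA in the falls was not tested. The log2 ratio of Mef2c to Sox6 was 2.43 ± 0.14 and 2.53 ± 0.08.

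**Figure D2:**
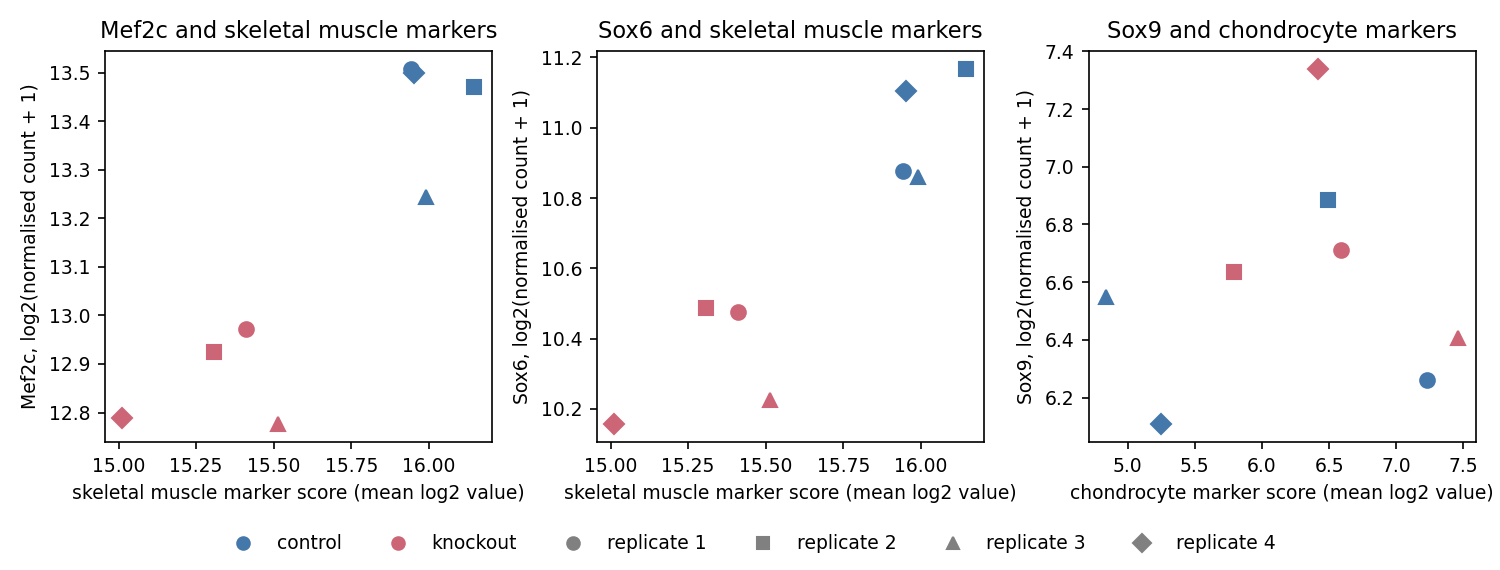
Log2 of the normalised count plus 1 of Mef2c and Sox6 against the mean log2 value of the 16 skeletal muscle markers, and of Sox9 against that of the 11 tested chondrocyte markers, in the control libraries (blue) and those labelled Knockout (red), with marker shapes for replicates. The muscle scores of the libraries labelled Knockout (15.01 to 15.52) lie below those of the controls (15.94 to 16.15), as do Mef2c and Sox6, while the chondrocyte scores (4.84 to 7.23 in the controls, 5.79 to 7.46 in the other group) overlap.

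Runx1 (chromosome 16, 92601466 to 92826149, minus strand, opposite Gm26626), needed for blood stem cells and present in early chondrocytes, rose. Its values were 240, 220, 467 and 218 in the 4 controls, in replicate order. They were 716, 869, 475 and 903 in the 4 libraries labelled Knockout. The groups were separate, but control replicate 3 and knockout replicate 3 were nearly level. The means were 286 ± 121 and 741 ± 195, a difference of 1.40 ± 0.27 on the log2 scale (estimate ± SE, adjusted p by limma 0.00911, by exact permutation p = 0.0286). Runx1 was called in 17 of 17 alternative settings, between 1.30 and 1.67, the highest of these without control replicate 3.

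Runx3 (chromosome 4, 135120652 to 135177990, plus strand, opposite Gm16224), which acts in chondrocyte maturation and in T cells, had the largest rise of the 10. Its values were 63.8, 18.2, 33.6 and 10.95 in the 4 controls, in replicate order, and 118, 72.7, 90.3 and 88.0 in the 4 libraries labelled Knockout. The control libraries were widely spread and all lay below the lowest library labelled Knockout. The means were 31.6 ± 23.4 and 92.2 ± 18.7, from 10 to 118 reads a library. The difference was 1.78 ± 0.46 on the log2 scale (estimate ± SE, adjusted p by limma 0.0222, by exact permutation p = 0.0286), and it was 1.90 without control replicate 3. Dropping control replicate 2 ended the limma call (adjusted p = 0.0624), as did dropping knockout replicate 1 (0.0569) or 4 (0.0581).

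Runx2, the relative that drives hypertrophy and bone formation, was not among the 10 but belongs to the same family of genes with the paired letters shown above. It had 251, 56.5, 172 and 74.5 in the 4 controls, in replicate order, and 610, 275, 362 and 393 in the 4 libraries labelled Knockout, so the groups were separate. The difference was 1.75 ± 0.44 on the log2 scale (estimate ± SE, adjusted p by limma 0.0206, by exact permutation p = 0.0286). Dropping control replicate 4 ended the limma call (adjusted p = 0.0548), as did dropping knockout replicate 1 (0.0537) or 4 (0.0558). Supt3 lies opposite Runx2, and reads of these genes may not have been kept apart. Cbfb, which encodes the partner of the RUNX proteins, did not pass the test, with means of 2017 ± 130 and 1775 ± 380 (log2 difference -0.21, limma adjusted p = 0.299). The corepressor genes Runx1t1 (0.77, limma adjusted p = 0.113) and Cbfa2t3 (-0.48, adjusted p = 0.134) did not pass either. Of the 5 other Runx genes and partners only Runx2 was called, and over all genes 11.6% were called higher. The median difference of the list was -0.01, which turned to 0.13 when scaling left out muscle, blood and the highest genes. Without control replicate 3 Runx1t1 was called too (1.06, limma adjusted p = 0.0249), and without knockout replicate 3 Cbfa2t3 was (-0.69, limma adjusted p = 0.0155). The log2 ratio of Runx1 to Cbfb was -2.89 ± 0.59 in the controls and -1.28 ± 0.42 in the other group, with separate groups. That of Sox9 to Runx2 was -0.42 ± 1.17 and -1.85 ± 0.58, with overlapping groups.

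Markers of other RUNX-expressing cells were read beside these rises. Over all genes 11.6% were called higher and 11.6% lower. All 12 macrophage markers were higher in the libraries labelled Knockout, 10 of them called, and their summed count was 3076 to 7107 in the controls and 10540.0 to 15145 in the other group. All 12 fibroblast markers were higher, again with 10 called, from 41500.2 to 126657 in the controls and 180887 to 287259.5 in the other group. On the log2 scale, Runx1 minus the macrophage score was 0.45 ± 0.64 and 0.58 ± 0.38, and Runx3 minus the same score was -2.89 ± 1.13 and -2.39 ± 0.26. The groups overlapped in each. They also overlapped for Runx1 minus the chondrocyte or the endothelial score and for Runx3 minus the chondrocyte score. Minus the muscle score, both genes had separate groups, higher in the libraries labelled Knockout, as had Runx3 minus the endothelial score. Runx1 minus the fibroblast score was -2.86 ± 0.19 in the controls and -3.20 ± 0.07 in the other group, where the groups were separate, and for Runx3 (-6.20 ± 0.92 and -6.17 ± 0.50) they overlapped. Of the 12 T and natural killer cell markers only 3 were abundant enough to test. Cd3e was called (54.7 ± 20.6 and 23.1 ± 7.46, log2 difference -1.19, limma adjusted p = 0.0377), while Cd4 (0.59) and Nkg7 (-0.56) were not. Leaving out a single library gave 0 calls in this list for 6 of the 8 libraries, all but control replicate 3 and knockout replicate 1. The erythroid markers gave 0 calls among 11, with 0 above 0 and a median of -1.91, but 3 were lower without control replicate 3 and 9 without knockout replicate 3. The neutrophil markers gave 0 calls among 9, with 0 above 0 and a median of -0.61, which was -0.10 without control replicate 1 and -0.25 without knockout replicate 4. Osteoblast and osteocyte markers were higher in 9 of 9 cases with 1 called, 5 without control replicate 1 and 0 when any other single library was left out. Differences of all 12 macrophage and all 12 fibroblast markers stayed above 0 in each of the 17 alternative settings, and without knockout replicate 4 only 6 and 5 of them were called. The part of these cells in the rises was not tested.

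Foxc1 (chromosome 13, 31806633 to 31812476, plus strand), a forkhead factor of the skull, limb and growth plate, rose. Its values were 156, 125, 176 and 106 in the 4 controls, in replicate order, and 258, 420, 189 and 215 in the 4 libraries labelled Knockout. The groups were separate, with control replicate 3 and knockout replicate 3 closest and knockout replicate 2 the highest. The means were 141 ± 31.0 and 271 ± 104, a difference of 0.89 ± 0.25 on the log2 scale (estimate ± SE, adjusted p by limma 0.0303, by exact permutation p = 0.0286). It was 1.01 without control replicate 3. Leaving out any of 5 single libraries ended the limma call, namely control replicate 2 (adjusted p = 0.0785) or 4 (0.0782), or knockout replicate 1 (0.0630), 2 (0.0558) or 4 (0.0528). It was also lost under quantile normalization (0.0621).

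Foxc2 (chromosome 8, 121116171 to 121118895, plus strand, within the annotated gene Gm20388 on the same strand) is the close paralogue of Foxc1 and acts in vertebral cartilage and lymphatic vessels. It had 54.1, 26.2, 58.0 and 37.2 in the 4 controls, in replicate order, and 107, 73.6, 65.2 and 96.8 in the 4 libraries labelled Knockout. Every library labelled Knockout lay above every control. The means were 43.9 ± 14.8 and 85.6 ± 19.4, a difference of 0.99 ± 0.28 on the log2 scale (estimate ± SE, adjusted p by limma 0.0325, by exact permutation p = 0.0286). Without control replicate 3 it was 1.14. The limma call ended when control replicate 2 was dropped (adjusted p = 0.0738) or 4 (0.0763), or knockout replicate 1 (0.0816), 2 (0.0558) or 4 (0.0907), and under quantile normalization (0.0721).

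The log2 ratio of Foxc1 to Foxc2 was 1.70 ± 0.34 in the controls and 1.61 ± 0.61 in the other group. The endothelial markers are genes of vessels in general and hold none specific to lymphatic vessels. They gave 0 calls among 12 tested, with 4 higher and a median difference of -0.13 (0.01, with 6 higher, when scaling left out muscle, blood and the highest genes). Without knockout replicate 3, 4 of them were called lower and the median was -0.30, and without knockout replicate 1 the median was 0.03. Their summed count was 7475 to 9521 in the controls and 5811 to 12180 in the other group, and Pecam1 had means of 1206 ± 118 and 1278 ± 296. Foxc1 minus the endothelial score, on the log2 scale, was -2.10 ± 0.18 and -1.13 ± 0.71, and Foxc2 minus that score -3.80 ± 0.42 and -2.74 ± 0.73, with overlapping groups. Foxc1 minus the fibroblast score was -3.82 ± 0.41 and -4.67 ± 0.44, and Foxc2 minus that score -5.52 ± 0.48 and -6.28 ± 0.30, again with overlapping groups. For both genes they overlapped with the chondrocyte and macrophage scores too, and were separate, higher in the libraries labelled Knockout, with the muscle score. The part of fibroblast or vessel RNA in the rises was not tested.

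The homeodomain genes did not pass the test. Barx1 (chromosome 13, 48662998 to 48666507, plus strand), a marker of joint-forming and stomach mesenchyme, had 48.7, 33.3, 95.3 and 96.4 in the 4 controls, in replicate order, and 81.8, 82.1, 80.5 and 115 in the 4 libraries labelled Knockout. Control replicates 1 and 2 lay below every library labelled Knockout, while control replicates 3 and 4 lay above 3 of the 4. The difference was 0.51 ± 0.34 on the log2 scale (estimate ± SE, adjusted p by limma 0.294, by exact permutation p = 0.286). Nkx3-2 (chromosome 5, 41761483 to 41764501, minus strand), a repressor that holds chondrocytes immature, had 13.0, 12.1, 14.95 and 7.67 in the 4 controls, in replicate order, and 9.97, 16.2, 16.3 and 24.6 in the 4 libraries labelled Knockout. These rest on 7 to 28 reads, and the log2 difference was 0.43 with an SE of 0.37 (limma adjusted p = 0.418, exact permutation p = 0.229). Both genes were called in 0 of 17 alternative settings. Minus the muscle score, both had separate groups, higher in the libraries labelled Knockout, and minus the fibroblast score separate groups, lower there. Barx1 was also separate and lower minus the macrophage score. The groups overlapped for Nkx3-2 minus that score and for both genes minus the chondrocyte or the endothelial score. With single libraries left out, the difference of Barx1 ran from 0.21 (without control replicate 2) to 0.71 (without control replicate 3 or 4). That of Nkx3-2 ran from 0.24 (without knockout replicate 4) to 0.64 (without knockout replicate 1), with 0.25 without control replicate 4.

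**Figure D3:**
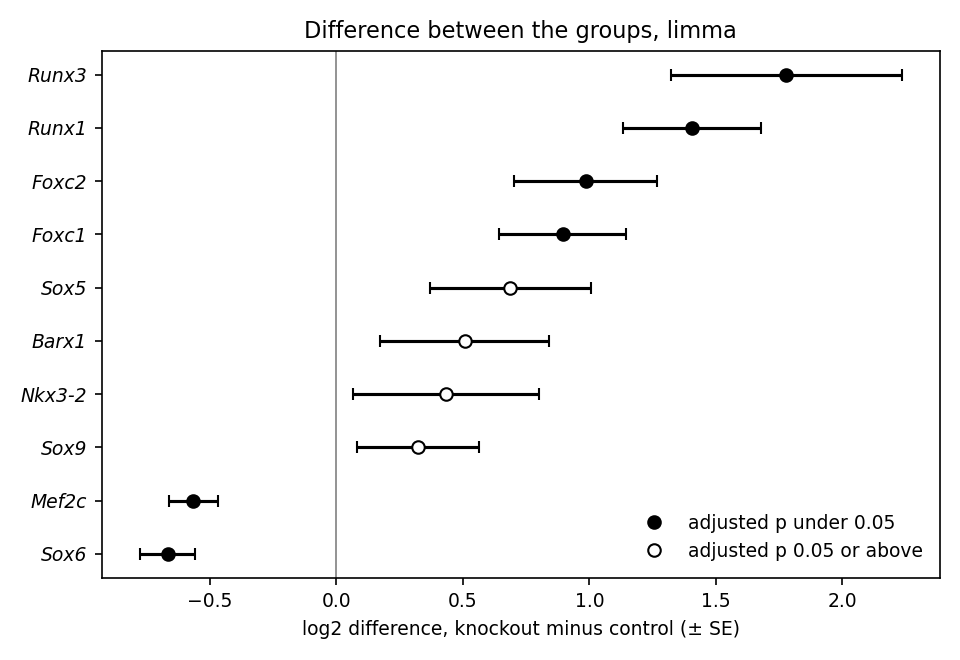
Log2 difference between the groups, Knockout minus Control, (horizontal axis, bars for the standard error of the limma fit) for the 10 transcription factor genes, ordered by size, with filled points where the adjusted p was under 0.05. The points run from -0.67 for Sox6 to 1.78 for Runx3.

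The SOX trio acts on cartilage matrix genes. The list held 19 of them, of which 17 were tested, and 3 rose and 0 fell, beside 11.6% higher and 11.6% lower over all genes. The median difference was 0.72, with 16 of 17 above 0. It was 0.41 without control replicate 3, 0.35 without control replicate 4 and 0.45, with 11 of 15 above 0, without knockout replicate 3. Col11a1, a minor fibrillar collagen, went from 348 ± 319 to 1275 ± 490 (log2 difference 2.17, SE 0.49, limma adjusted p = 0.0144). Hapln1, the link protein of aggrecan, went from 87.3 ± 35.3 to 207 ± 53.6 (1.28, SE 0.30, adjusted p = 0.0165), and Matn4, a matrilin, from 107 ± 16.5 to 256 ± 140 (1.13, SE 0.30, adjusted p = 0.0239). Hapln1 lost its call without knockout replicate 4 (limma adjusted p = 0.0513), and Matn4 without control replicate 2 (0.0675) or 4 (0.0510) and under quantile normalization (0.0550). Comp, with means of 4358 ± 1862 and 7942 ± 2462, missed the threshold (0.91, limma adjusted p = 0.0501) and passed it without control replicate 3 (1.17, adjusted p = 0.0122) or knockout replicate 3 (1.01, adjusted p = 0.0476). Scrg1 was not called (0.72, limma adjusted p = 0.265), nor in any of the 17 alternative settings. Without control replicate 1 the count of the list was 5.

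The classic SOX9 targets Col2a1 and Acan were not called. Col2a1, the main collagen of cartilage, had 2721, 677, 635 and 146 in the 4 controls, in replicate order, and 1528, 1326, 1147 and 658 in the 4 libraries labelled Knockout. The control libraries spanned the whole range of the other group and more. The difference was 0.79 ± 0.70 on the log2 scale (estimate ± SE, adjusted p by limma 0.441, by exact permutation p = 0.486). Acan, the aggrecan gene whose promoter drives the Cre, had 544, 101, 52.3 and 186 and then 372, 358, 231 and 184 in the same order (0.84, SE 0.59, adjusted p = 0.326, exact permutation p = 0.343).

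Of 9 genes of hypertrophic chondrocytes, 6 rose and 0 fell, beside 11.6% higher and 11.6% lower over all genes. Runx2 was again among the 9, several were shared with osteoblasts and osteoclasts, and the median was 1.65. Without control replicate 4 or without knockout replicate 1, only 3 were called. Mmp13, a collagenase, went from 1220.2 ± 975 to 7645 ± 4004 (log2 difference 2.93, SE 0.59, limma adjusted p = 0.00993). Spp1, osteopontin, went from 3210 ± 2033 to 11605 ± 4738 (2.02, SE 0.47, adjusted p = 0.0154), and Pth1r, the receptor of parathyroid hormone, from 487 ± 288 to 1216 ± 198 (1.49, SE 0.35, adjusted p = 0.0162). Col10a1, the collagen that defines hypertrophic cartilage, was not called, with means of 60.03 ± 38.6 and 328 ± 368 (1.65, SE 1.01, limma adjusted p = 0.257, exact permutation p = 0.314). Ihh, the hedgehog ligand of prehypertrophic cells, was at 12.0 ± 3.31 and 15.3 ± 9.06 (0.18, adjusted p = 0.813). The osteoclast markers were higher in 8 of 8 cases with 7 called (2 without control replicate 2, knockout replicate 1 or knockout replicate 4, and 3 without control replicate 4), and their part in the rises was not tested.

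Relatives of the 10 genes gave the following counts, beside 11.6% of all genes called higher and 11.6% lower. Of 8 tested other Sox genes 1 rose, Sox4, a factor of many progenitor cells, from 64.0 ± 13.3 to 135 ± 16.3 (log2 difference 1.08, SE 0.18, limma adjusted p = 0.00610). The list's median was 0.29, with 8 of 8 above 0. It was 0.14 without control replicate 4 or knockout replicate 3, 0.05 with 6 of 8 above 0 under quantile normalization, and 0.44 with 3 called when scaling left out muscle, blood and the highest genes. Sox12 and Sox18 did not pass (0.67, adjusted p = 0.0534, and 0.34, adjusted p = 0.122), though Sox12 was called without control replicate 3 (0.84, limma adjusted p = 0.0232). Of 6 tested Mef2 relatives and class IIa histone deacetylases, which repress MEF2 proteins, 0 rose and 2 fell, with a median of -0.22. Mef2d went from 4453 ± 279 to 3315 ± 147 (-0.42, SE 0.08, limma adjusted p = 0.00775) and Hdac5 from 1734 ± 151 to 1427 ± 78.2 (-0.28, SE 0.09, adjusted p = 0.0432). Mef2a did not pass (-0.24, adjusted p = 0.133), except without control replicate 1 (-0.33, limma adjusted p = 0.0496). The call of Mef2d was lost under quantile normalization (-0.17, adjusted p = 0.135). That of Hdac5 was lost in 11 of 17 settings, among them edgeR (edgeR adjusted p = 0.0564).

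Over all genes 11.6% were called higher and 11.6% lower. Of 8 tested forkhead relatives of connective tissue 3 rose and 0 fell, with a median of 0.80. They were Foxs1, a gene of vessel-wall cells (27.5 ± 12.1 and 57.6 ± 8.80, log2 difference 1.12, limma adjusted p = 0.0269), Foxp1 (339 ± 75.1 and 564 ± 148, 0.72, adjusted p = 0.0341) and Foxp2 (42.8 ± 4.96 and 91.3 ± 43.9, 0.97, adjusted p = 0.0436). When single libraries were left out, Foxs1 stayed called in 4 of 8 fits, Foxp1 in 2 and Foxp2 in 1. The count of the list was 5 without control replicate 3, 0 without control replicate 2 or 4 or knockout replicate 2, and 1 without control replicate 1 or knockout replicate 1 or 4.

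Of 20 tested further limb and joint transcription factors 8 rose and 1 fell, beside 11.6% higher and 11.6% lower over all genes. The median of the list was 0.74. Prrx2, a homeobox gene of limb mesenchyme, went from 94.8 ± 48.3 to 411 ± 88.5 (log2 difference 2.21, SE 0.30, limma adjusted p = 0.00398). Pitx1, which specifies the hindlimb, went from 104 ± 21.1 to 228 ± 37.7 (1.13, SE 0.18, adjusted p = 0.00516), and Dlx5, a homeobox gene of chondrocytes and osteoblasts, from 51.8 ± 26.6 to 169 ± 47.3 (1.76, SE 0.33, adjusted p = 0.00833). These 3 kept their call in 17 of 17 alternative settings. The gene that fell was Barx2, a relative of Barx1 known from muscle progenitors, from 236 ± 30.6 to 131 ± 31.0 (-0.87, SE 0.19, adjusted p = 0.0131), named after its values were seen. Its groups were separate where those of Barx1 overlapped, and the difference between these genes was not tested.

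**Figure D4:**
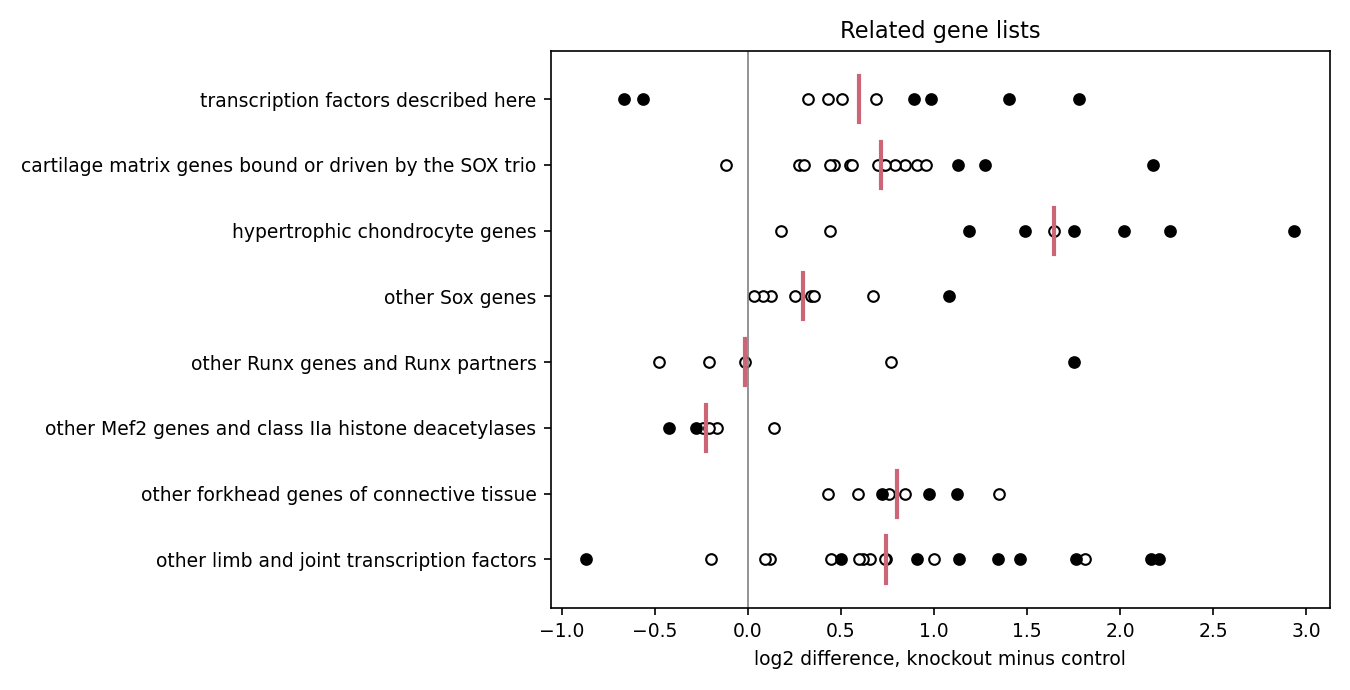
Log2 difference between the groups, Knockout minus Control, (horizontal axis) for each tested gene of the 10 transcription factors and of 7 related lists, filled where the limma adjusted p was under 0.05, with a red bar at the median of each list. The medians run from -0.22 for the Mef2 relatives and histone deacetylases to 1.65 for the hypertrophic genes.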

How the data were processed

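The deposited table gives 1 normalised signal value per gene and library. Per the labels and the submitters' processing notes, the authors aligned reads to mm10 (HISAT2 is named), counted them per gene with featureCounts, and normalised and filtered with DESeq2. Versions, annotation, strand setting and filter values are not given in the sources used here. Dividing each library by its lowest value above 0 gave whole reads for 100% of values (within 0.02), and DESeq2 size factors of these reads matched the inverse of each divisor. The divisors 1.01 (control replicate 2) and 0.997 (knockout replicate 1) are too near 1 to be read from low values alone. On these reads edgeR called 3324 genes and DESeq2 4125, against 3461 by limma on the deposited values. The chi-square of each of the 12 pairs within groups, divided by its degrees of freedom, was 23.5 to 59.7, far above sampling noise. Of the value columns 0 were unmapped, and 23 gene names were whole numbers and are not named.

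The main test was limma 3.58.1 (eBayes with trend) on log2(value + 1), with 1 term for group, over genes at 10 or more in at least 4 libraries. Fold changes are on that scale, which understates changes of low genes. Single genes also had exact two-sided permutation tests. edgeR 4.0.16 and DESeq2 1.42.0 were run on the recovered reads. The tests were also run on simulated counts with the same extra spread for every gene. That setting is simpler than these data, so the run does not vouch for the calls made here. Coordinates, exon lengths and overlaps are from GENCODE M21, on the same build as mm10. The score of a marker list averages the log2 values of those members that were tested. Alternatives were pseudocounts of 0.1 and 5, no filter, TMM and quantile scaling, scaling without muscle, erythroid and neutrophil markers and the 50 highest genes, the count tools, a replicate block and leaving out each library. Named were the 10 genes, Loxl2, Runx2, the 3 tested genes of smallest p in each related list (5 for cartilage matrix) and the highest markers of a cell type. Cbfb, Col10a1, Ihh, Barx2, Myh1 and Tnnc2 were named after their values were seen. The genes and lists were chosen with earlier results of these data known.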

Additional observations from a re-analysis of the deposited data

Results flagged for a closer look

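Single libraries stood apart within their group of 4 by Dixon's test, which chance alone would flag in about 1 of 20 groups, for 5 of the 62 groups of values examined. Control replicate 3 did so for 3 genes. Its Runx1 value of 467 stood above 218 to 240 in the other controls, its Mef2c value of 9696 below 11355 to 11655, and its Loxl2 value of 1135 above 282 to 349. Each of these lay toward the libraries labelled Knockout. For Barx1, knockout replicate 4 had 115, above 80.5 to 82.1 in the other libraries of its group. The osteoclast marker score of control replicate 1, a mean log2 value, was 8.33, above 5.41 to 5.60 in the other controls.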

How the results depend on the processing

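The direction of the 10 transcription factors and of Loxl2 was the same in all 17 alternative settings. The count of called genes among the 10 was 3 under quantile normalization, and 3 to 6 when single libraries were left out. Over all genes 3461 were called, 1740 to 3832 with a library left out, and 24 in the related lists, 15 to 31 with a library left out. The replicate block gave 2018 calls over all genes, 4 among the 10, where Foxc1 (limma adjusted p = 0.0573) and Foxc2 (0.0529) were lost, and Loxl2 at 1.44, no longer called (0.0513). The labels do not state what the replicate numbers share, deviations of same-numbered libraries correlated at 0.21, -0.12, -0.23 and -0.06, and the numbers were not taken as pairs. Loxl2 was at 1.23 and not called by edgeR (adjusted p = 0.0669) or DESeq2 (0.0659), and between 1.24 and 1.91 with a library left out. Scaling without the muscle, erythroid and neutrophil markers and the highest genes called 2717 genes higher and 785 lower, against 1732 and 1729, and moved the median of all genes to 0.15. Mef2c (-0.42) and Sox6 (-0.52) stayed called there. The causes were not tested. Of the 10, Nkx3-2 rests on the fewest reads, 7 to 28 a library.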

Other observations

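The tested genes with a mean of at least 50 whose log2 values most resembled each transcription factor, after group means were subtracted, were ranked over the 8 libraries as a description. Nkx3-2, whose own mean was below 50, was left out. The libraries share depth and tissue make-up. For Runx1 the nearest were P3h4 (Pearson r 0.99), Fam114a1 (0.99) and Ggh (0.98). For Runx3 they were Glb1 (0.98), Stat2 (0.98) and Mdfi (0.97). For Sox6 the nearest was Map3k20 (0.99) and for Mef2c it was Cnot7 (0.98). For Foxc1 the list held Ntan1 (0.95) and Tnmd (0.94), and for Foxc2 it was led by Pikfyve (0.99). For Sox9 the nearest was Rrm1 (0.98), for Sox5 Sfxn3 (0.97) and for Barx1 Bahd1 (0.995). Each gene named is among the 3 highest for its transcription factor, picked from all genes compared.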
